A study of Canis lupus familiaris with 2 samples.

Results

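Tissue inhibitors of metalloproteases, the membrane inhibitor RECK and 5 matrix metalloproteases were compared between the canine glioma subclones J3T-1 and J3T-2. The 10 genes are TIMP1, TIMP2, TIMP3, TIMP4, RECK, MMP1, MMP2, MMP3, MMP9 and MMP14, taken as a family by name and function. They were found through the array annotation, using probe sets with exactly 1 gene symbol. Of the 15115 genes that such probe sets cover, 9 belong to the family, with 17 probe sets among them. TIMP4 had no such probe set and was not analysed here.

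Both subclones come from 1 parental canine glioma line and are described as close in genetic background but unlike in invasion and angiogenesis. In published xenografts J3T-1 cells grew in clusters around newly formed vessels, whereas J3T-2 cells spread diffusely as single cells. Both were grown in DMEM with 10% fetal bovine serum and antibiotics, without further treatment, and 250 ng of total RNA from each was labelled with a 3′ kit and hybridized. Each subclone is 1 array, so no value below has a replicate, no test between the subclones was possible, and the number of arrays limits the precision. Cells on plastic have no brain matrix or host vessels around them.

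Matrix metalloproteases are zinc enzymes that cut collagens, laminins and other matrix proteins and release growth factors held there. They are made as inactive precursors. TIMPs occupy the active site of the mature enzymes, and RECK, anchored in the membrane by a lipid, restrains several of them at the cell surface. In gliomas these enzymes are known for their part in tissue invasion and in the remodelling of vessels. The balance of protease and inhibitor matters for activity, which RNA levels do not measure.

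The values are MAS5 signals, a linear brightness per probe set. Signals at or below the array's median were treated as being at a floor, which was 19.0 for J3T-1 and 22.0 for J3T-2. For scale, the 36 probe sets for Bacillus dap, lys, phe and thr transcripts did not exceed 10.2 and 9.7. The median log2 ratio of J3T-2 over J3T-1 was 0.167 over 9433 measured genes, and the spiked hybridization controls gave 0.165, so each log2 ratio below is also given relative to the median gene where it matters. The available error is how far probe sets of 1 gene disagree: their log2 ratios had an SD of 0.26 over 4580 genes. It ran from 0.35 in the dimmest of 4 signal classes to 0.17 in the brightest, and it holds no spread between cultures.

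**Figure D1:**
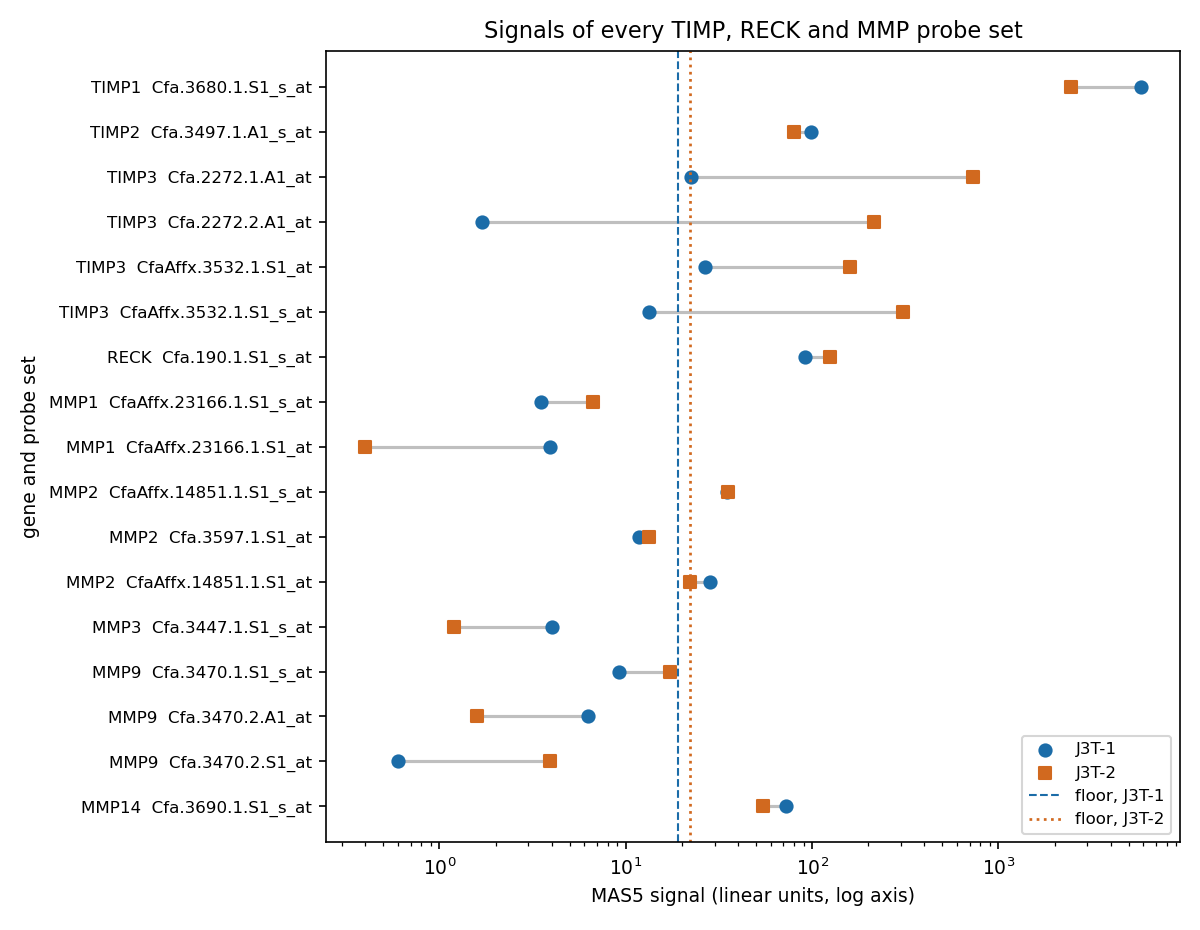
MAS5 signal on a log axis for each of the 17 probe sets (rows, by gene and probe set), with J3T-1 as circles, J3T-2 as squares and each array's floor as a vertical line. The 4 TIMP3 probe sets are all bright in J3T-2 and near or under the floor in J3T-1, the TIMP1 probe set is brighter in J3T-1, and the probe sets of MMP1, MMP3 and MMP9 lie under the floor on both arrays.

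TIMP3 was far higher in J3T-2, and TIMP1 was higher in J3T-1. TIMP2, RECK, MMP14 and MMP2 were within 2-fold, and MMP1, MMP3 and MMP9 were at the floor on both arrays. Thus 6 of the 10 genes were measured, meaning above the floor on at least 1 array. Of these, 1 passed 2-fold towards J3T-2, as 7.28% of all measured genes did, and 1 passed it towards J3T-1, as 3.49% did. The 6 measured genes had a median log2 ratio of -0.15, beside 0.167 for all. Over all measured genes 687 passed 2-fold towards J3T-2 and 329 towards J3T-1, a share of 67.6% for J3T-2. That share was 51.9% with ratios centred on the median gene, 52.0% with the spiked controls, 50.6% with equal trimmed means, and 48.4% with quantile or loess normalization. The family counts of 1 and 1 were the same under those 5 scalings.

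TIMP3 (NCBI gene 481289) encodes the TIMP that binds to the extracellular matrix, inhibits ADAM proteases besides MMPs, and blocks VEGF from its receptor KDR. Its 4 probe sets are called A to D here, in the order of their J3T-2 signal. Probe set A read 22.5 for J3T-1 against 734.1 for J3T-2. Probe set B read 13.4 against 308.8, C 1.7 against 215.8, and D 26.6 against 159.5. All 4 probe sets were therefore above the floor in J3T-2 and at most 1.4 times the floor in J3T-1, 2 of them below it. In a culture, fewer cells with the transcript and less transcript per cell cannot be told apart.

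The size of the TIMP3 difference depended on the probe set. Probe set A gave 32.6-fold (log2 ratio 5.03) and D gave 6.0-fold (2.58). Against the J3T-1 floor, B gave at least 16.3-fold and C at least 11.4-fold. With the floor lowered to the Bacillus controls, chosen after the data were seen, B became a measured 23.04-fold and C at least 21.2-fold. The SD between the log2 ratios of A and D, the pair above the floor on both arrays, was 1.73, and of the 4580 genes with several such probe sets only FGF13 had a larger one. With genes at the floor in J3T-1 entered at their bounds, 3 of 9433 genes, TIMP3 included, were at least as far towards J3T-2 as probe set A, and 57 as D. A floor raised to each array's 75th percentile left bounds of at least 6.88-fold for A and at least 1.49-fold for D, and the median over the probe sets, which lies between the bounds of B and C, gave at least 13.6-fold. With no floor and a pseudocount of 16, A gave 19.5-fold on the scale of log2 of signal plus pseudocount.

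TIMP1 (NCBI gene 403816) encodes a secreted inhibitor of most soluble MMPs that also binds the tetraspanin CD63 and is known for effects on cell survival. Its only probe set read 5817.3 for J3T-1 against 2446.4 for J3T-2. These signals were 306.2 and 111.2 times the floor, so the ratio does not rest on a dim value. TIMP1 was 2.38-fold higher in J3T-1, a log2 ratio of -1.25 with a technical SD of 0.17 for its signal class. Relative to the median gene the log2 ratio was -1.42. At least as far towards J3T-1 lay 224 of the measured genes (2.37%). No second probe set was present against which to check it, and its suffix marks probes that match more than 1 transcript. Over 12 other settings that gave it a value, TIMP1 stayed between 2.37-fold and 2.69-fold higher in J3T-1.

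The TIMP3 and TIMP1 differences ran in opposite directions, and a common factor between the arrays cancels in their comparison. The log2 ratio of TIMP3 exceeded that of TIMP1 by 6.28 ± 0.32 (technical SD of the difference) by TIMP3 probe set A. By probe set D the excess was 3.83 ± 0.39. These SDs come from the signal classes. The log2 ratios of A and D themselves had an SD of 1.73, so 0.32 and 0.39 understate the spread for TIMP3. The ratio of TIMP3 to TIMP1 transcripts therefore differed between the subclones by 77.6-fold with A and 14.3-fold with D, while B and C gave bounds of at least 38.6-fold and at least 27.01-fold. This compares ratios, since the signals of different probe sets are not comparable as levels.

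**Figure D2:**
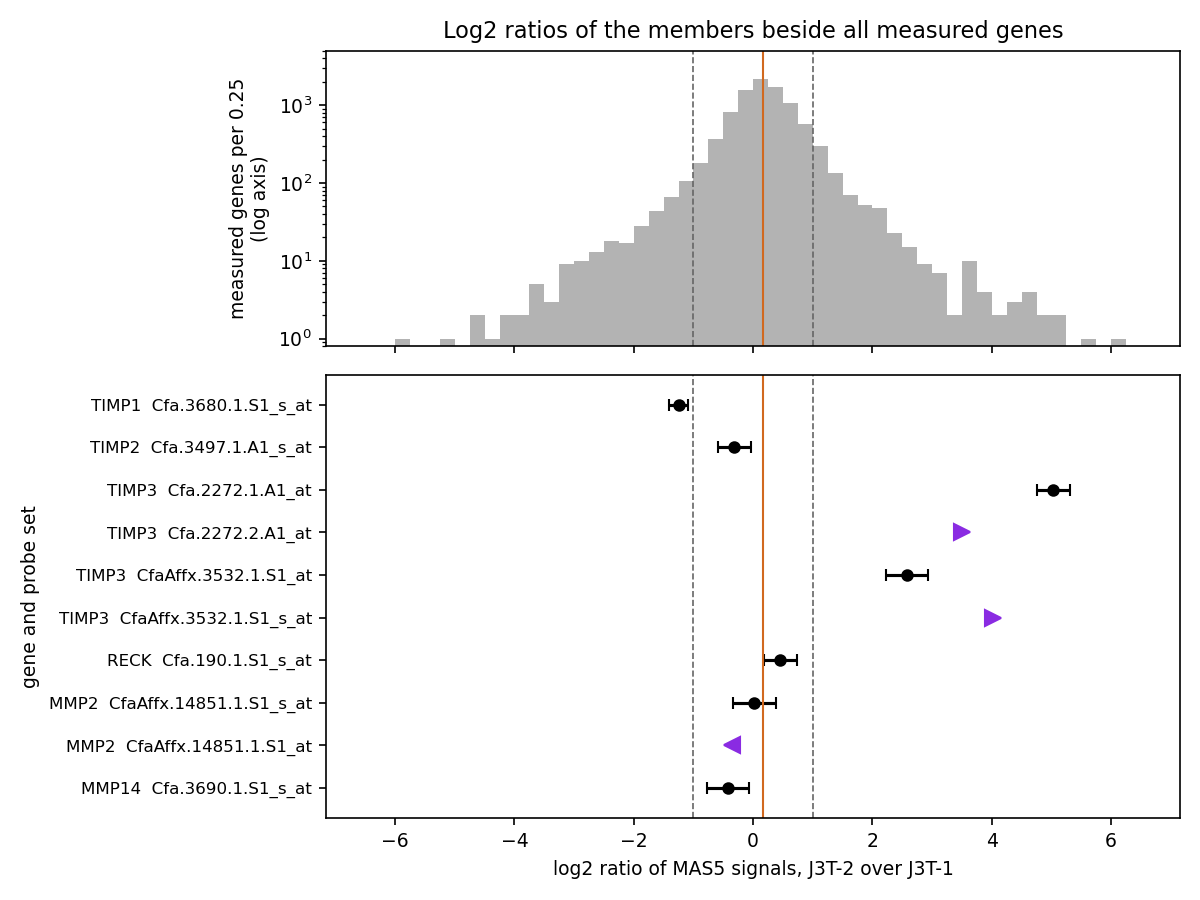
Top, number of measured genes (log axis) per 0.25 of log2 ratio, J3T-2 over J3T-1. Bottom, log2 ratio of each family probe set above the floor on at least 1 array: black points with bars of 1 technical SD of their signal class, triangles for lower bounds where 1 array was at the floor, dashed lines at 2-fold and an orange line at the median gene (0.167). The TIMP3 probe sets lie from 2.58 to 5.03, TIMP1 at -1.25, and the others inside the dashed lines.

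TIMP2, MMP14 and MMP2 form a known activation unit: the membrane protease MMP14 binds TIMP2, and this complex captures the precursor of the gelatinase MMP2, which a free MMP14 then cuts. TIMP2 (NCBI gene 403633) read 99.1 for J3T-1 against 79.6 for J3T-2, a 1.24-fold difference. MMP14 (NCBI gene 403823) read 72.8 against 54.5, a 1.34-fold difference. Both were lower in J3T-2 by about as much, with log2 ratios of -0.32 and -0.42 that differed by 0.10 ± 0.45. In units of the technical SD these ratios were -1.15 and -1.18, or -1.76 and -1.65 relative to the median gene, so neither reached 2 SDs of the disagreement between probe sets.

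MMP2 (NCBI gene 403733) was dim on both arrays. Its brightest probe set read 34.8 for J3T-1 against 35.3 for J3T-2, a log2 ratio of 0.02 that turned to -0.15 relative to the median gene. Another read 28.2 against 22.0, the latter equal to the floor, so that J3T-1 exceeded J3T-2 by at least 1.28-fold. The last read 11.8 against 13.3, below both floors. No difference in MMP2 was detectable at these signals.

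RECK (NCBI gene 403477) read 91.6 for J3T-1 against 125.4 for J3T-2. It was 1.37-fold higher in J3T-2, a log2 ratio of 0.45, or 0.29 relative to the median gene. That is 1.65 and 1.04 technical SDs. RECK therefore stood on the other side of 0 from TIMP2 and MMP14. Its log2 ratio exceeded that of MMP14 by 0.87 ± 0.45 and that of TIMP2 by 0.77 ± 0.39, 1.94 and 1.98 technical SDs. Each of these genes has 1 probe set, so their agreement across probe sets could not be checked.

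The interstitial collagenase MMP1, the stromelysin MMP3, which also activates other MMPs, and the gelatinase MMP9 were not detectable at this floor. The 2 MMP1 probe sets read 3.5 and 3.9 for J3T-1, against 6.7 and 0.4 for J3T-2. MMP3 read 4.0 against 1.2. The brightest of the 3 MMP9 probe sets read 9.2 against 17.2. The latter lay above every Bacillus control but below the array's median. The others read 6.3 and 0.6 for J3T-1, against 1.6 and 3.9 for J3T-2. No fold is given for these 3 genes in the main setting, where their 6 probe sets were all at the floor on both arrays.

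**Figure D3:**
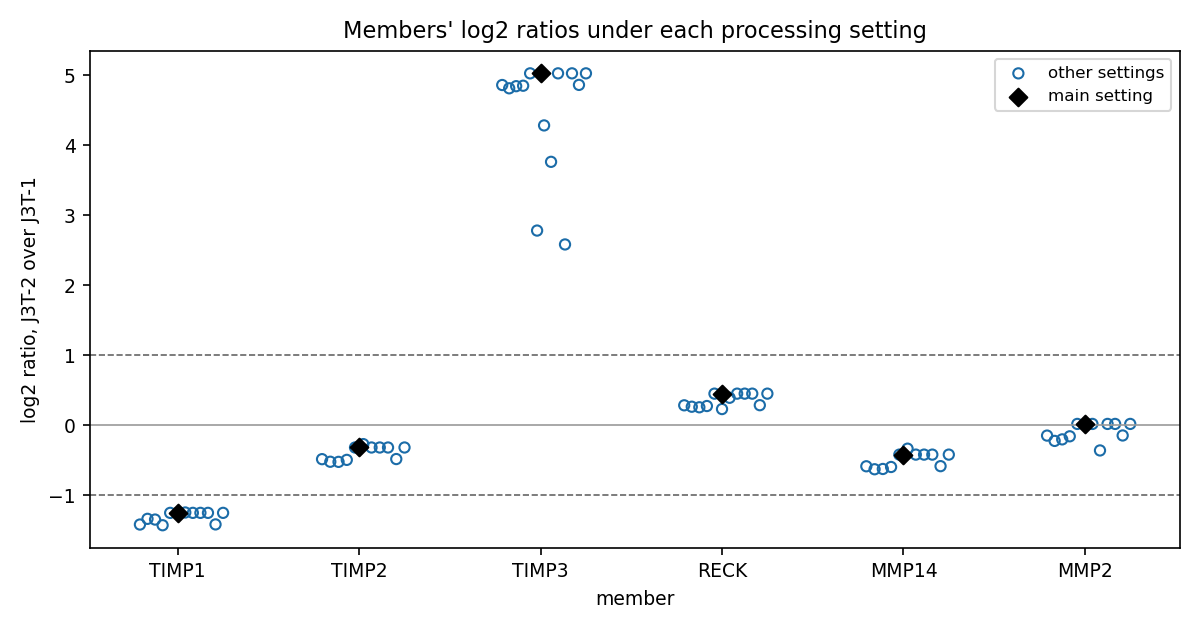
Log2 ratio, J3T-2 over J3T-1, of the 6 measured genes under each processing setting that gave a value (circles) and under the main setting (diamonds), with dashed lines at 2-fold. TIMP3 ranges from 2.58 to 5.03 and TIMP1 from -1.43 to -1.24, always outside the dashed lines, while TIMP2, RECK, MMP14 and MMP2 stay inside them; bounds are plotted at their value.

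Other matrix metalloproteases were largely at the floor. Of 18 listed genes, 15 had a probe set and 13 of these were at the floor on both arrays. Among these 13, MMP11 (18.9 and 20.8), MMP13 (13.4 and 15.2) and MMP17 (15.2 and 15.8) still read above every Bacillus control. MMP19, a soluble MMP of broad substrate range, read 86.1 for J3T-1 against 172.1 for J3T-2, which is 1.999-fold and just under the size rule. It lay further under once the shift of the median gene was removed. MMP28 was above the floor in J3T-1 alone, at 20.6. MMP19 and MMP28 were named because they were the measured members of this list. Of the 2 measured genes 0 were at least 2-fold apart, beside 7.28% of all measured genes towards J3T-2 and 3.49% towards J3T-1. Once the floor was lowered to the 25th percentile, 1 gene of the list passed towards J3T-2. It was MMP20, at 1.4 for J3T-1 and 9.6 for J3T-2, under the highest Bacillus controls of 10.2 and 9.7. With the 25th percentile floor 1510 of all measured genes passed towards J3T-2, beside 687 in the main setting.

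ADAM and ADAMTS genes encode sheddases and proteoglycan-cutting enzymes, some of which TIMPs can inhibit. Inhibition by TIMPs was not checked for each listed gene. Among the 14 listed, 5 were measured and 0 of these were at least 2-fold apart. With the floor at the 25th percentile 4 passed towards J3T-2 and 1 towards J3T-1, so this count depends on the floor. The 4 were ADAM19 (5.7 and 11.7), ADAM28 (5.1 and 12.6), ADAMTS2 (0.7 and 10.6) and ADAMTS5 (3.4 and 11.1). These signals are near the highest Bacillus controls of 10.2 and 9.7 or under them. The count towards J3T-2 was 0 in 12 other settings, the floor at the Bacillus controls among them. With the 25th percentile floor 1510 of all measured genes passed towards J3T-2 and 869 towards J3T-1. The 5 genes measured in the main setting had a median log2 ratio of 0.49, beside 0.167 for all genes. ADAM10, a sheddase of Notch and cadherins and a target of TIMP1 and TIMP3, read 973.4 for J3T-1 against 1414.9 for J3T-2. It was 1.45-fold higher in J3T-2, and a second probe set gave 1.53-fold. ADAM9, another sheddase, read 328.8 against 609.7, which is 1.85-fold, and a second measurable probe set gave 2.22-fold. The remaining one was at the floor. ADAM15, a membrane protease, went the other way, with 76.2 against 47.8, 1.59-fold higher in J3T-1. Its second probe set gave at least 2.23-fold. ADAMTS4, an aggrecan-cutting enzyme, read 29.4 against 2.3, at least 1.34-fold towards J3T-1, and ADAMTS9, a versican-cutting relative, read 38.8 against 54.6. ADAM17, the main TIMP3 target among sheddases, had no probe set of 1 symbol.

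Activators, binding partners and clearance receptors went both ways. Of 30 listed genes 19 were measured, with 3 past 2-fold towards J3T-2 and 4 towards J3T-1, beside 7.28% and 3.49% of all measured genes, and a median log2 ratio of -0.09. Without the probe sets that end in _x_at or _s_at, these counts were 1 and 1. With each gene's probe set highest in J3T-2, they were 4 and 3. PCSK5 then passed, by a probe set that read 0.8 for J3T-1 against 46.8 for J3T-2, at least 2.46-fold. The other PCSK5 probe sets were at the floor on both arrays. A floor raised to the 75th percentile left 1 gene past 2-fold towards J3T-1. EFEMP1, a fibulin that binds TIMP3 in the matrix, read 3.5 for J3T-1 against 1216.3 for J3T-2, a difference of at least 64.02-fold, and its second probe set gave at least 4.07-fold. ITGB3, the beta subunit of an integrin that can hold MMP2 at the cell surface, had 68.4 and 445.9, 6.52-fold higher in J3T-2. Its partner ITGAV had 657.6 and 565.7, a log2 ratio of -0.22.

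The plasminogen activators, whose product plasmin activates several MMP precursors, differed in opposite directions. PLAT read 110.0 for J3T-1 against 484.2 for J3T-2, 4.4-fold higher in J3T-2. PLAU had 237.3 and 98.6, 2.41-fold higher in J3T-1. Plasminogen itself, PLG, was at the floor, and the inhibitor SERPINE2 had 1733 and 1590.9, a log2 ratio of -0.12.

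Higher in J3T-1 was also ITGA3, an integrin subunit of a laminin receptor that also binds TIMP2, with 191.1 against 4.3, at least 8.69-fold. The heparan sulfate proteoglycan gene SDC4 had 784.3 and 232.7, 3.37-fold higher in J3T-1, and its remaining pair of probe sets gave 2.57-fold and 2.96-fold. The receptor LRP1, which clears MMPs and TIMPs from the cell surface, read 51.1 against 15.1, a difference of at least 2.32-fold. A second LRP1 probe set gave at least 1.65-fold the same way and its 2 others were at the floor.

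Several other partners at the cell surface were within 2-fold. CD63, the TIMP1-binding tetraspanin, read 4791.3 for J3T-1 against 4713.6 for J3T-2. The caveolar protein gene CAV1 had 6845.2 and 6410.2, the tetraspanin gene CD151 853.6 and 775.7, and the hyaluronan receptor CD44, which can dock MMP9, 1206.7 and 1035.4. The integrin subunit ITGB1 had 3335.8 and 2127.8, a log2 ratio of -0.65. THBS1, a matrix protein that binds MMP2, had 2875.2 and 3131. KDR, the VEGF receptor that TIMP3 blocks, was at the floor on both arrays, at 2.0 and 2.6, so it has no ratio.

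RECK is also a co-receptor for WNT7 ligands, together with ADGRA2. The list of 8 partners also held ADAM10 and SKP2, which are not WNT7 receptors. Measured were 4 of them, WNT7A, LRP6, ADAM10 and SKP2. Of these 1 was past 2-fold towards J3T-2 and 1 towards J3T-1, beside 7.28% and 3.49% of all measured genes. The count towards J3T-2 was 0 in 7 other settings and 1 in 6. The median log2 ratio, 0.61 beside 0.167 for all measured genes, lay between those of ADAM10 (0.54) and SKP2 (0.68). The ligand WNT7A read 61.4 for J3T-1 against 4.7 for J3T-2, a difference of at least 2.79-fold. The co-receptor LRP6 had 22.2 and 49.7, 2.24-fold higher in J3T-2, which came under 2-fold once the shift of the median gene was removed. ADGRA2, WNT7B, FZD4 and LRP5 were at the floor on both arrays.

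Transcription factors known to act on MMP genes were mostly measured, 16 of 20, with 2 past 2-fold towards J3T-2, 4 towards J3T-1 and a median log2 ratio of 0.29, beside 7.28%, 3.49% and 0.167 for all measured genes. The count towards J3T-1 was 1 for a floor at the 75th percentile, and that towards J3T-2 was 1 in 10 of 13 other settings. The AP-1 subunit FOSL1 read 208.9 for J3T-1 against 49.7 for J3T-2, 4.2-fold higher in J3T-1. Its relatives FOSL2 (96.7 and 41.7) and JUNB (56.2 and 16.3) differed the same way, by 2.32-fold and at least 2.55-fold. FOS read 232.5 against 412.0, 1.77-fold higher in J3T-2, and JUN 944.1 against 1019.6, so the AP-1 genes did not share a direction.

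The ETS factor ETV1 read 355.1 for J3T-1 against 166.7 for J3T-2, a 2.13-fold difference, and its second probe set gave 2.001-fold. STAT3, a cytokine-activated factor, had 78.8 and 408.4, 5.18-fold higher in J3T-2, and its 3 remaining probe sets gave 2.69-fold to 4.56-fold. RUNX2, the bone-forming factor, had 25.7 and 53.3, a 2.07-fold difference with 1.45-fold from a second probe set. It came under 2-fold once the shift of the median gene was removed. Its J3T-1 signal was near the floor of 19.0, and its remaining probe sets were at the floor on both arrays. SP3 had 194.5 and 207.8.

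**Figure D4:**
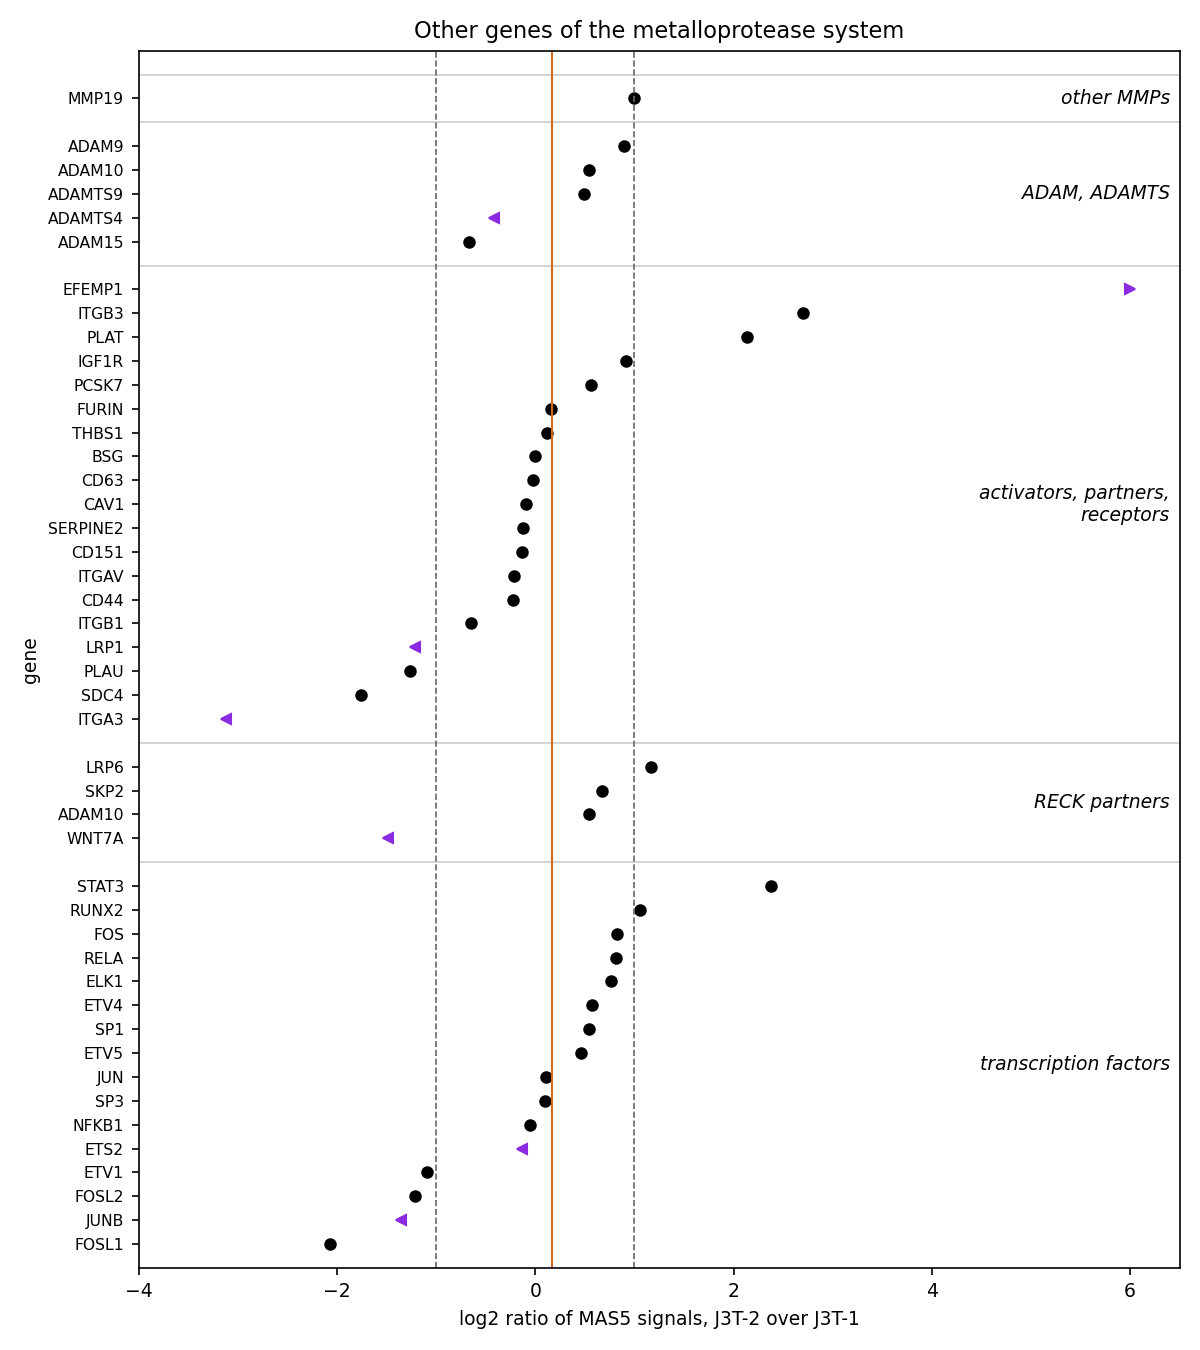
Log2 ratio, J3T-2 over J3T-1, of each measured gene with a fold in the 5 lists around the family (points; triangles are lower bounds where 1 array was at the floor), with dashed lines at 2-fold and an orange line at the median gene (0.167). EFEMP1 lies farthest to the right at 6.0, ITGA3 farthest to the left at -3.12, and the ADAM and ADAMTS genes stay inside the dashed lines.

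In the RefSeq annotation of the dog assembly UU_Cfam_GSD_1.0, TIMP1, TIMP3 and TIMP4 each lie within the span of a synapsin gene, SYN1, SYN3 and SYN2, which encode proteins of synaptic vesicles. The 4 SYN3 probe sets were at the floor on both arrays, with signals of at most 18.8 for J3T-1 and 16.7 for J3T-2. The SYN2 probe set gave 0.4 and 3.5, and SYN1 had no probe set of 1 symbol. MMP14 overlaps the transporter gene SLC7A7, which had none either. No genome build is given for the array values, so the annotation was used for names and neighbours only.

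The glioma label was checked against marker genes. Of 10 glial and neural stem markers 6 were measured. These were VIM (8129.9 and 7960.8), NES (55.3 and 69.3), SOX2 (411.1 and 1191), SLC1A3 (771.3 and 2396.3), PDGFRA (43.7 and 98.9) and FABP7 (14.8 and 82.1). Past 2-fold towards J3T-2 were 4 of them, beside 7.28% of all measured genes. The astrocyte markers GFAP and S100B and the proteoglycan gene BCAN were at the floor. Of 8 fibroblast and pericyte markers 5 were measured, with summed signals of 4473.5 for J3T-1 against 3395 for J3T-2. COL1A1 (73.7 and 598.7) and ACTA2 (22.8 and 140.7) were higher in J3T-2, and FAP (177.5 and 13.2) was higher in J3T-1. LUM (4131.1 and 2559.1), which makes up most of these sums, was 1.61-fold higher in J3T-1, under the size rule. DCN read 51.9 and 71.3, and COL3A1, PDGFRB and RGS5 were at the floor. The part of these markers in the TIMP differences was not tested. Of 7 endothelial markers 4 were measured, all dim, with summed signals of 136.2 and 101.1 and with PECAM1, KDR and TEK at the floor. Of 8 leukocyte markers 2 were measured, CD68 and LAPTM5, with summed signals of 96.9 and 126.5 over the list and PTPRC, AIF1, CSF1R, ITGAM and TYROBP at the floor.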

How the data were processed

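RNA of J3T-1 and J3T-2 was measured on 1 Affymetrix canine array each. The deposited values are intensities on a linear scale, made by the authors with MAS5, per the submitters' processing notes. The MAS5 version and scaling target were not given in the sources used here, nor were detection calls. MAS5 subtracts mismatch probes, which leaves dim values noisy.

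Of 42924 non-control probe sets, 29254 had 1 gene symbol, 439 several and 13231 none. Signals were raised to a floor, each array's median. Each gene took the probe set whose mean log2 signal was highest. A fold against a floor is a lower bound, and none is given between floors. Genes were counted by a size rule of 2-fold. Named genes were all members, and list genes at least 2-fold apart or over 10 times the floor. Others named were chosen after their values were seen. The members and lists were chosen with earlier results of these data known. 11 alternatives were planned and 2 added after the data were seen. Protein sequences were not analysed here. The scripts ran in Python 3.11.15 with pandas 2.3.3, numpy 2.4.6, matplotlib 3.10.9 and statsmodels 0.14.6.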

Additional observations from a re-analysis of the deposited data

How the results depend on the processing

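The family counts of 1 gene past 2-fold towards J3T-2 and 1 towards J3T-1 kept their values in 12 of 13 other settings. Without probe sets that end in _x_at or _s_at, the count towards J3T-1 was 0, because TIMP1, TIMP2, RECK and MMP14 have no other probe set. For a floor at the 75th percentile TIMP2, MMP14 and MMP2 had no value. Over all measured genes, the counts towards J3T-2 and J3T-1 went from 687 and 329 to 1510 and 869 for a floor lowered to the 25th percentile, and to 264 and 121 for one raised to the 75th. The count towards J3T-2 was 438 with quantile normalization and 437 with loess, whose scaling removes the shift of the median gene. MMP2 read at least 1.28-fold towards J3T-1 with the suffix filter. MMP9, at the floor in the main setting, gave a log2 ratio of 0.90 for the 25th percentile floor and at least 0.75 for the Bacillus floor. MMP1, also at the floor in the main setting, gave at least 0.61 for the 25th percentile floor. That floor, 4.4 for J3T-1 and 5 for J3T-2, lies under the highest Bacillus controls of 10.2 and 9.7. Each of these ratios rests on 1 probe set. The other MMP9 probe sets read 6.3 against 1.6 and 0.6 against 3.9, and the other MMP1 probe set read 3.9 against 0.4. With the pseudocount the log2 ratios were 0.22 for MMP1, -0.22 for MMP3 and 0.40 for MMP9. In the ADAM list 1 gene passed towards J3T-1 with the pseudocount and with the Bacillus floor, beside 0 in the main setting. Among the RECK partners the count of 1 towards J3T-1 was 0 for the 75th percentile floor. No paired analysis was possible because each subclone has 1 array. Signal over background limits TIMP3 in J3T-1, MMP2 on both arrays and the genes at the floor.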

Other observations

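The 20 measured genes nearest to TIMP3 in the annotation, 10 on each side, had a median log2 ratio of 0.66, beside 0.167 for all measured genes. They ranged from -0.67 to 1.51, with 3 past 2-fold towards J3T-2, where 7.28% of all measured genes lie, and 0 towards J3T-1. The same medians were 0.28 beside TIMP1, 0.29 beside TIMP2, 0.29 beside MMP14, 0.09 beside RECK and 0.07 beside MMP2. Of 20 neighbours each, 1 beside TIMP1 and 2 beside MMP2 passed 2-fold towards J3T-1, where 3.49% of all measured genes lie. Towards J3T-2, 2 beside TIMP2, 1 beside RECK and 1 beside MMP14 passed. The part of neighbouring genes in the TIMP3 value was not tested.

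The genes whose measurable probe sets disagreed most were FGF13 (SD of log2 ratio 1.80), TIMP3 (1.73), MICAL2 (1.51), PTK7 (1.45) and CACFD1 (1.29), each over 2 probe sets. These were named after their values were seen.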
